A study of Mus musculus with 272 samples.

Results

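The genes described here are those named for the centrosome (Cep) and for the centromere (Cenp) in a study of ribosome fractionation in mouse oocytes and preimplantation embryos. They are the symbols of the deposited table that begin with Cep and a digit or with Cenp and a letter, 58 genes of 15854 symbols, 37 of them Cep and 21 Cenp. The rule uses symbols only, but it was set with earlier results of these data known. The study covers 8 stages: the germinal vesicle (GV) oocyte, the metaphase II (MII) oocyte, the zygote, the 2-cell, 4-cell and 8-cell embryo, the morula and the blastocyst. At each of them there are 4 transcriptome libraries, made from pools of 20 oocytes or embryos from the batches that went into the gradients, and 3 sucrose gradients per stage, lettered A to C, each loaded with the lysate of about 100 oocytes or embryos and collected as 10 fractions. All gradient lysates were made with cycloheximide, which holds ribosomes on their transcripts. All groups are unmanipulated mouse material as far as the labels say, and the strain, the age of the females and any hormone treatment are not given in the sources used here. The pools are not described as coming from separate animals, so p-values measure only the spread between these pools and gradients.

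Centrosomes organise microtubules around a pair of centrioles, and Cep proteins build the centrioles, cap and lengthen them, hold them together and attach the appendages from which cilia grow. Mouse oocytes lose their centrioles during growth, and their spindles form from acentriolar microtubule-organising centres. The sperm brings no functional centriole in the mouse, and centrioles form anew only late in preimplantation development. Kinetochores, by contrast, are needed at every division. They rest on nucleosomes that hold the histone variant CENP-A, on which an inner layer of Cenp subunits (the constitutive centromere-associated network) assembles and recruits the outer layer that grips microtubules. The symbols do not sort the genes perfectly by function, since Cenpj encodes a centriole elongation factor and Cep55 a midbody protein of cytokinesis.

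The start regions of 4 genes on which the results turn are shown to display the motifs common to cell cycle promoters. They are the 120 bases upstream of the RefSeq gene start, read 5′ to 3′ on the strand of the gene, in build GRCm38.p6. Capitals mark the CCAAT box (CCAAT, or ATTGG on the other strand) and the cell cycle genes homology region (TTTGAA or TTTAAA, or TTCAAA on the other strand). Cenpa encodes the centromeric histone and its window lies at chr5:30666766-30666885 (+ strand). Cenpe encodes the kinesin that carries chromosomes to the spindle equator, with its window at chr3:135212443-135212562 (+ strand). Cenpf encodes a very large coiled-coil kinetochore protein, with its window at chr1:189688087-189688206 (- strand). Cenpn encodes the subunit that reads the CENP-A nucleosome, with its window at chr8:116921620-116921739 (+ strand).
Cenpa: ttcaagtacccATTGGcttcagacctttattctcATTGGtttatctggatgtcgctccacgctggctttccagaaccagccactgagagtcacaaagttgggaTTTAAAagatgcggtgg
Cenpe: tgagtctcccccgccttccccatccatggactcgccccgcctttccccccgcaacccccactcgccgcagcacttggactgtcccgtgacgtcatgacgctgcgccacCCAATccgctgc
Cenpf: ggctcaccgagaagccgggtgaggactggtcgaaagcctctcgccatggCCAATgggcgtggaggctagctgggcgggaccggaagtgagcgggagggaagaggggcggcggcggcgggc
Cenpn: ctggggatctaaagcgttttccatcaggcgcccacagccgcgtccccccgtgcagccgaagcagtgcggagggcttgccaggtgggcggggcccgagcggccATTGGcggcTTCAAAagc
Promoter windows of RefSeq matched 53 of the 58 genes, all 21 Cenp and 32 Cep. Over the full windows, which run from before to after the gene start and have the same length for all genes, CCAAT on either strand was present in 14 of 21 Cenp promoters (66.7%), in 16 of 32 Cep promoters (50.0%) and in 41.1% of the 27025 promoters of all genes. TTTGAA was present in 5 of 21 Cenp and 9 of 32 Cep promoters, against 20.2% of all promoters. TTTAAA was present in 5 of 21 Cenp and 6 of 32 Cep promoters, against 14.9% of all. These matches describe the letters of the windows and do not show binding.

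Values are CPM, the reads of a gene per 1 M reads of its library. CPM is relative to the library and is not scaled by gene length, so a gene is compared with itself across stages and levels of different genes are not compared. In bulk RNA, fewer cells that contain a transcript and less transcript per cell cannot be told apart. Polyadenylated RNA was amplified, so a change in the amount of a transcript and in its polyadenylated share cannot be told apart either. Transcriptome libraries held 11.2 to 24.3 M reads and fraction libraries 0.0102 to 43.2 M, with a median of 18.6 M. Of the 240 fraction libraries 15 held under 1 M reads, 14 of them fraction 1 of GV oocytes, of 2-cell, 4-cell or 8-cell embryos or of morulae. Gradients from the 2-cell embryo to the morula held more zeros than the others. Of the 1740 values of the 58 genes at each stage, 46.5% were 0 reads in 2-cell, 58.2% in 4-cell and 50.8% in 8-cell embryos and 38.7% in morulae, against 13.4% in GV oocytes, 14.4% in MII oocytes, 17.4% in zygotes and 20.3% in blastocysts. Stage markers followed the labels: the oocyte factor Gdf9 was at 5666 ± 411 CPM in GV oocytes and 1.86 ± 0.808 in blastocysts (SD, n = 4), Zscan4d, a gene of the 2-cell stage, was at 1223 ± 239 in 2-cell embryos, and the trophectoderm factor Cdx2 was at 92.5 ± 12.4 in blastocysts. Of 9 cumulus and granulosa cell markers 3 were rows of the table, and their summed level ranged from 39.4 to 44.7 CPM in GV, from 59.8 to 68.9 in MII and from 48.1 to 59.95 in zygote libraries, most of it Cyp19a1 (62.7 ± 4.26 in MII oocytes). Fshr was at 2.45 ± 1.02 CPM in GV oocytes, and Inha was at 0 reads in all 4 zygote libraries. From the 4-cell stage on the sum was at most 0.227 CPM. Prm2, the 1 sperm marker of 3 in the table, ranged from 14.1 to 19.3 CPM in GV oocytes and from 4.61 to 8.70 in zygotes. The part of such cells in the changes described next was not tested.

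Cep and Cenp transcripts changed at nearly every step, and the members of one family moved in opposite directions. By mean level, 24 of 37 Cep and 13 of 21 Cenp genes were highest at a stage up to the 2-cell embryo. Of the Cep genes 10 were highest in MII oocytes and 10 in blastocysts, while 6 of the Cenp genes were highest in GV oocytes. These counts were not set beside those of all genes, so they are not read as particular to the families. Consecutive stages were compared with limma on log2(CPM + 1). Calls required a change of 1 or more on that scale and a p below 0.05 after Benjamini-Hochberg adjustment over all 14642 genes tested. All 58 genes passed the filter on low values, a CPM of at least 1 in 4 libraries. Changes are on the log2(CPM + 1) scale, which understates those of low genes.

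**Figure D1:**
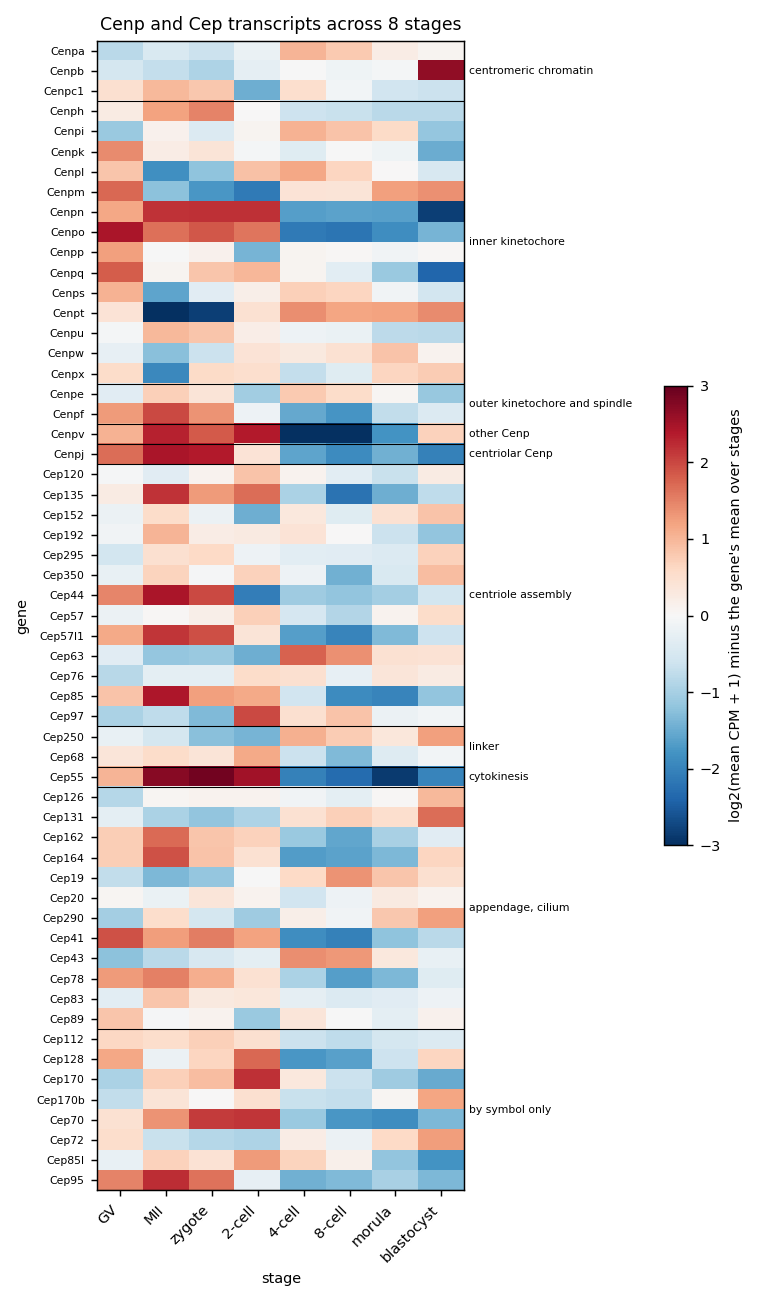
Heat map of Cep and Cenp genes (rows, grouped by role; 1 gene is not shown) over the 8 stages (columns); colour gives log2(mean CPM + 1) of 4 transcriptome libraries minus the gene's own mean over stages. Cep55 and Cenpn are high from the MII oocyte to the 2-cell embryo and low after it, Cenpv is low in the 4-cell and 8-cell embryo, Cep63 is high from the 4-cell embryo on, Cenpt is low in the MII oocyte and the zygote, and Cenpb is high in the blastocyst.

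From the GV to the MII oocyte, some transcripts of centriole proteins rose and 9 of the inner kinetochore fell as a share of the library. Of 37 Cep genes 11 were called higher and 2 lower, and of 21 Cenp genes 4 higher and 9 lower, 44.8% of the members against 34.5% of all genes tested (9.11% higher and 25.3% lower). The median change was 0.71 over Cep, -0.19 over Cenp and -0.11 over all genes. All 9 falling Cenp genes belonged to the inner kinetochore, of whose 14 subunits Cenpi and 1 other rose. Quantile normalization moved the median of all genes to 0.16 and the share of calls that were higher from 26.4% to 55.6%. On that scale 19 Cep genes were higher and none lower, the Cenp median turned to 0.11 and 6 Cenp genes were called lower. The edgeR fit on recovered reads, with its own scaling, gave 41.5% of calls higher, 19 Cep genes higher and 2 lower, and 8 Cenp genes higher and 6 lower.

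Cenpt, the inner subunit that recruits the Ndc80 microtubule binder, had 15.6, 15.1, 22.4 and 21.4 CPM in the 4 GV libraries and 1.14, 0.167, 0.704 and 0.106 in the MII libraries (change -3.72, SE 0.20, limma adjusted p 5.8e-18). Every MII library was below every GV library. Cenpm, a subunit of the same inner layer, had 141, 119, 126 and 123 CPM in GV and 20.3, 21.0, 10.5 and 11.4 in MII oocytes (change -2.99, SE 0.23, limma adjusted p 9.0e-14), again with no overlap. Cenpl, the partner of Cenpn, fell from 27.7 ± 2.89 to 3.50 ± 0.859 CPM (SD, n = 4; change -2.69). Cenpn itself went from 663 ± 46.1 to 1326 ± 148 CPM, a change of 1.00 that was just under the threshold. Thus the paired subunits Cenpl and Cenpn had changes of opposite sign. Cenpx, a histone-fold subunit that also acts in DNA repair, fell from 125 ± 9.15 to 21.4 ± 2.40 CPM (change -2.49). Of the Cenp genes that rose, Cenpv changed by 1.26 and Cenpi, an inner subunit, by 1.25.

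Among centriole proteins, Cep135, a scaffold of the centriole wall, rose from 21.0, 20.0, 15.7 and 16.9 CPM in GV to 77.4, 80.6, 60.6 and 74.1 in MII oocytes (change 1.94, SE 0.28, limma adjusted p 3.4e-07). Cep192, which recruits the mitotic kinases and pericentriolar material also used by acentriolar spindles, rose from 62.5 ± 2.51 to 136 ± 18.6 CPM (change 1.10). Cep290, a protein of the ciliary transition zone, rose from 8.93 ± 0.903 to 28.0 ± 4.35 CPM (change 1.54), and Cep164, of the distal appendages, from 61.2 ± 3.45 to 138 ± 23.1 (change 1.15). The midbody gene Cep55 rose from 122, 113, 114 and 123 to 318, 354, 452 and 416 CPM (change 1.69, SE 0.17, limma adjusted p 5.3e-11). Cep170, a gene grouped by symbol only, rose by 1.66, while Cep128 and Cep72 were called lower, with changes of -1.33 and -1.19; after quantile normalization these became -0.55 and -0.42 and were no longer called. In the outer layer, the kinesin gene Cenpe had 345, 327, 318 and 319 CPM in GV and 656, 724, 594 and 744 in MII oocytes (change 1.05, SE 0.13, limma adjusted p 2.3e-08), which quantile normalization took to 0.91, below the threshold.

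Fertilization was followed by few changes. From the MII oocyte to the zygote 4 Cep genes were called lower and 2 Cenp genes higher, 10.3% of the members and 10.3% of all genes tested (5.79% higher and 4.48% lower). Both Cenp genes were histone-fold subunits that bind each other. Cenpx returned from 21.3, 20.6, 24.7 and 19.0 CPM in MII oocytes to 141, 132, 125 and 107 in zygotes (change 2.50, SE 0.19, limma adjusted p 2.2e-12), a range that overlapped that of GV oocytes. Cenps rose from 48.9 ± 4.64 to 116 ± 18.3 CPM (change 1.22). Cep85, a centriole assembly gene, fell from 167 ± 26.6 to 71.7 ± 10.9 CPM (change -1.20).

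From the zygote to the 2-cell embryo 4 Cep genes were called higher and 5 lower, and 3 Cenp genes higher and 6 lower, 31.0% of the members against 33.9% of all genes (25.2% higher and 8.71% lower). Most calls over all genes were higher (74.3%), which fell to 46.4% after quantile normalization, and the Cep median went from 0.02 to -0.27. With quantile normalization 2 Cep genes were higher and 10 lower, and 2 Cenp genes higher and 7 lower. In edgeR these counts were 2 and 6 for Cep and 3 and 6 for Cenp. Cenpt rose again, from 1.38, 1.04, 0.759 and 1.17 CPM in zygotes to 23.0, 15.9, 22.1 and 15.8 in 2-cell embryos (change 3.26, SE 0.20, limma adjusted p 3.5e-16), and Cenpl from 5.9995 ± 0.940 to 28.8 ± 5.08 (change 2.08). Cenpc1, which encodes the CENP-C link between centromeric chromatin and the kinetochore, fell from 35.7, 41.1, 45.8 and 47.5 to 8.85, 4.75, 10.8 and 7.88 CPM (change -2.30, SE 0.23, limma adjusted p 6.4e-11). Cenpe and Cenpf, the genes of the outer layer, both fell, with changes of -1.42 and -1.50, and so did Cenpj (-1.98).

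The sharpest opposite pair at this step lay among centriole genes. Cep44, a protein of the proximal centriole, had 59.8, 50.7, 45.3 and 54.4 CPM in zygotes and 2.69, 1.23, 3.30 and 1.69 in 2-cell embryos (change -4.09, SE 0.26, limma adjusted p 1.1e-15). Cep97, which caps growing centrioles, had 0.739, 1.19, 2.63 and 2.22 CPM in zygotes and 19.4, 23.7, 35.5 and 24.01 in 2-cell embryos (change 3.33, SE 0.25, limma adjusted p 9.1e-14). For both genes the libraries of the 2 stages did not overlap. Cep152, the scaffold that recruits the duplication kinase Plk4, went from 3.32 ± 0.445 to 0.775 ± 0.706 CPM (change -1.36). Cep95 and Cep57l1 also fell (-1.89 and -1.56), as did the inner subunit Cenpp (-1.53).

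The 2-cell to 4-cell step changed the largest number of members, 36 of 58 (62.1%, against 64.8% of all genes tested, 31.8% higher and 32.9% lower). Of the Cep genes 8 were called higher and 17 lower, and of the Cenp genes 5 higher and 6 lower, with medians of -0.75 and -0.13 against 0.02 over all genes. Cenpn fell from 1305, 1423, 1364 and 1287 CPM in 2-cell to 118, 81.0, 83.1 and 89.3 in 4-cell embryos (change -3.86, SE 0.14, limma adjusted p 3.8e-23). Cenpv, which helps organise centromeric heterochromatin, fell from 148, 74.8, 88.8 and 82.8 to 0.722, 0.343, 0.429 and 2.38 CPM (change -5.71, SE 0.29, limma adjusted p 2.3e-19), and Cenpo from 98.7 ± 22.0 to 6.57 ± 1.92 (change -3.73). Cep55 fell from 280.1, 376, 369.9 and 304 to 13.6, 14.1, 16.9 and 9.16 CPM (change -4.55, SE 0.17, limma adjusted p 1.6e-23). Cep128 and Cep70 also fell, by 3.54 and 3.23 on the log2 scale. Each of these genes was high in all 4 libraries of the 2-cell stage and low in all 4 of the 4-cell stage.

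Other members rose at the same step. Cep63, which acts with Cep152 to start a daughter centriole, rose from 5.45, 3.22, 4.99 and 3.17 CPM to 45.0, 49.0, 54.9 and 43.0 (change 3.26, SE 0.21, limma adjusted p 4.2e-16), and Cep152 from 0.775 ± 0.706 to 5.08 ± 2.70 (change 1.72). Cep250, the linker that holds the centrioles of a pair together, rose from 0.577, 1.46, 1.02 and 1.25 to 8.56, 18.2, 8.84 and 6.02 CPM (change 2.37, SE 0.28, limma adjusted p 1.8e-09). Cep135, of the centriole wall, moved the other way, from 51.4 ± 6.76 to 7.56 ± 2.68 (change -2.66). Among kinetochore genes, Cenpe rose from 223, 175, 198 and 209.5 to 787, 598, 759.9 and 738 CPM (change 1.83, SE 0.13, limma adjusted p 8.0e-15) while Cenpf fell from 175, 146, 148 and 182 to 61.7, 61.6, 42.7 and 79.5 (change -1.42, SE 0.15, limma adjusted p 1.9e-10). The 2 outer kinetochore genes, which had changed alike from zygote to 2-cell embryo, thus moved apart. Cenpa rose from 216, 150.0, 173 and 174 to 343, 466, 412 and 455 CPM (change 1.23, SE 0.14, limma adjusted p 1.3e-09; 0.88 after quantile normalization, below the threshold), Cenpc1 by 2.01 and Cenpm by 2.59.

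**Figure D2:**
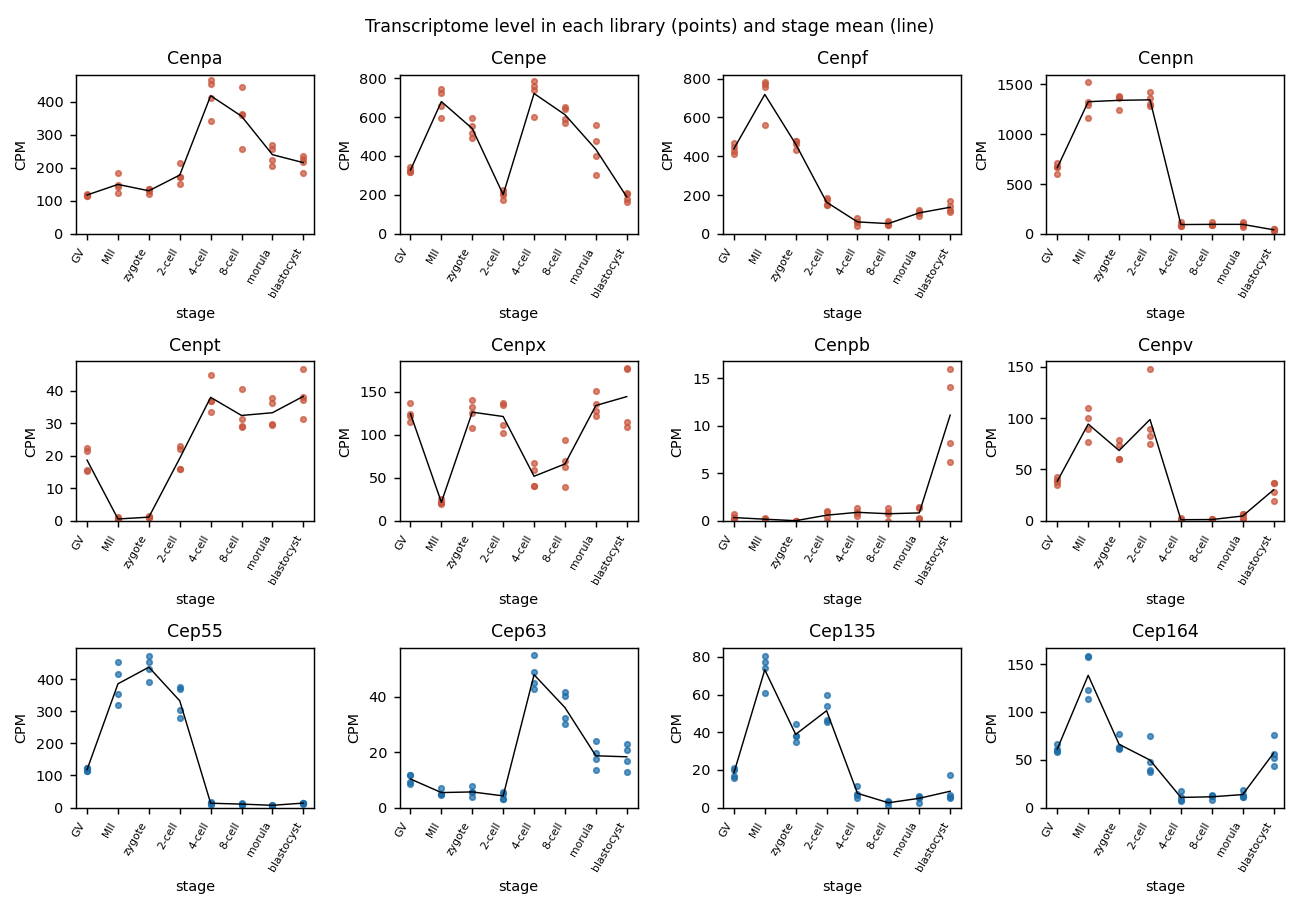
CPM (vertical axis, from 0) of 12 genes at the 8 stages (horizontal axis); points are the 4 transcriptome libraries of a stage and the line joins the stage means. Cenpn and Cep55 drop between the 2-cell and the 4-cell embryo, Cep63 rises there, Cenpt is close to 0 in MII oocytes and zygotes, and Cenpb stays under 2 CPM until the blastocyst.

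From the 4-cell to the 8-cell embryo 4 Cep genes were called lower (6.9% of the members, against 2.6% of all genes, 2.14% lower and 0.451% higher, of whose calls 17.4% were higher, 49.8% after quantile normalization and 33.3% in edgeR). Limma called none of the 21 Cenp genes, edgeR on recovered reads also called none, and 2 had an unadjusted p under 0.05. Cep350, Cep135 and Cep85, all of centriole assembly, were the lowest, with changes of -1.34, -1.31 and -1.32. Without 8-cell pool C the first 2 of these changes were both -0.99 and no longer called, and 1 member was called. From the 8-cell embryo to the morula 7 members were called (12.1%, against 11.9% of all genes, 8.18% higher and 3.7% lower), 2 Cep genes higher and 2 lower and 3 Cenp genes higher. Cenpf went from 63.8, 56.2, 47.6 and 43.0 CPM in 8-cell embryos to 91.1, 122, 112 and 106 in morulae (change 1.03, SE 0.15, limma adjusted p 3.6e-06), without overlap, but its change was 0.97 without morula pool B, 0.99 without 8-cell pool C and 0.94 without 8-cell pool D, and 0.94 both after quantile normalization and in edgeR, each below the threshold. Cenpv rose by 1.32. Without morula pool A 11 members were called. Quantile normalization left 4 calls, 3 Cep genes lower and 1 Cenp gene higher, and took the share of higher calls over all genes from 68.9% to 52.0%.

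From the morula to the blastocyst 6 Cep genes were called higher and none lower, and 2 Cenp genes higher and 5 lower, 22.4% of the members against 26.8% of all genes (18.8% higher and 7.97% lower). The Cep count depended on scaling: quantile normalization gave 2 higher and 2 lower, and moved the share of higher calls over all genes from 70.2% to 50.8%, and edgeR gave 3 Cep genes higher and 49.8%. Cep164 rose from 18.3, 13.5, 10.95 and 11.6 CPM in morulae to 56.2, 43.6, 75.7 and 52.3 in blastocysts (change 1.99, SE 0.22, limma adjusted p 2.7e-09), and the centriolar gene Cep350 from 7.58 ± 2.41 to 21.2 ± 3.05 (change 1.41). Cenpb, which binds a sequence of the minor satellite at the centromere, had 1.37, 0.159, 0.299 and 1.45 CPM in morulae and 14.1, 8.18, 16.0 and 6.22 in blastocysts (change 2.73, SE 0.27, limma adjusted p 2.1e-10). It had no read in the 4 zygote libraries, which allows up to 0.142 to 0.175 CPM per library (3 reads, counting error only). Cenpv rose from 6.73, 2.02, 2.74 and 6.75 to 19.1, 27.5, 36.6 and 37.2 CPM (change 2.56, SE 0.29, limma adjusted p 3.9e-09). The 4 inner subunits that fell were Cenpi, Cenpk, Cenpn and Cenpq, among them Cenpi from 45.1 ± 18.6 to 13.0 ± 1.33 CPM (change -1.65). Cenpe fell from 434 ± 109.5 to 189.6 ± 22.4 (change -1.16).

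Levels of single genes over the 8 stages differed in shape even within a structure. Cenpa had 118 ± 2.70 in GV oocytes, 149.9 ± 26.3 in MII oocytes, 131 ± 7.29 in zygotes, 178 ± 27.5 in 2-cell embryos, 419 ± 55.7 in 4-cell embryos, 357 ± 76.5 in 8-cell embryos, 240.1 ± 29.6 in morulae and 216 ± 23.0 in blastocysts (CPM, SD, n = 4), with its highest mean in the 4-cell embryo. Cenpj, the centriole elongation gene, had 84.4 ± 4.72 in GV oocytes, 145 ± 24.5 in MII oocytes, 138 ± 7.48 in zygotes, 34.4 ± 5.03 in 2-cell embryos, 7.82 ± 1.78 in 4-cell embryos, 6.22 ± 3.16 in 8-cell embryos, 8.80 ± 4.49 in morulae and 5.502 ± 1.85 in blastocysts, and every oocyte and zygote library was above every library from the 4-cell stage on. Cep192 had 62.5 ± 2.51 in GV oocytes, 136 ± 18.6 in MII oocytes, 78.3 ± 7.89 in zygotes, 81.1 ± 9.34 in 2-cell embryos, 88.6 ± 7.90 in 4-cell embryos, 67.1 ± 4.72 in 8-cell embryos, 42.3 ± 11.02 in morulae and 29.0 ± 6.34 in blastocysts. Cep295, needed to turn a new centriole into a centrosome, had 16.4 ± 1.93 in GV oocytes, 34.8 ± 5.05 in MII oocytes, 37.4 ± 5.25 in zygotes, 22.2 ± 1.43 in 2-cell embryos, 19.7 ± 7.36 in 4-cell embryos, 19.1 ± 5.41 in 8-cell embryos, 18.3 ± 4.30 in morulae and 40.2 ± 3.16 in blastocysts. These 2 genes were present at every stage, also in oocytes, which lack centrioles. Cep250 had 3.63 ± 1.12 in GV oocytes, 2.76 ± 0.840 in MII oocytes, 1.29 ± 0.462 in zygotes, 1.08 ± 0.378 in 2-cell embryos, 10.4 ± 5.37 in 4-cell embryos, 8.16 ± 1.15 in 8-cell embryos, 5.91 ± 2.47 in morulae and 11.8 ± 3.02 in blastocysts, with the lowest means in the zygote and the 2-cell embryo.

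Genes of the same structures that do not carry Cep or Cenp names were listed beside them, and their calls are read against all genes tested: 9.11% higher and 25.3% lower from GV to MII, 25.2% and 8.71% from the zygote to the 2-cell embryo, and 31.8% and 32.9% from the 2-cell to the 4-cell embryo. Of 10 centriole assembly genes, 4 rose and 1 fell at the first of these steps, 1 rose and 1 fell at the next, and 7 fell with none higher at the last. Among them was Plk4, the kinase that starts duplication, with 375, 378, 364 and 436 CPM in 2-cell and 42.8, 35.5, 37.3 and 55.2 in 4-cell embryos (change -3.17, SE 0.23, limma adjusted p 5.8e-15). Pcnt, the pericentriolar scaffold, moved the other way at that step, from 19.6, 12.7, 13.6 and 11.6 to 106, 128, 113 and 96.8 CPM (change 2.88, SE 0.17, limma adjusted p 2.4e-17). Of the 11 pericentriolar and gamma-tubulin genes 2 rose and 1 fell from GV to MII, 2 rose and 2 fell to the 2-cell embryo, and 3 rose and 3 fell to the 4-cell embryo. Of 8 augmin subunits, which branch spindle microtubules, 2 rose and 4 fell from GV to MII, 4 rose and none fell to the 2-cell embryo, and 5 rose and 1 fell to the 4-cell embryo. Of 14 outer kinetochore genes, 1 rose and 6 fell from GV to MII, the riser being the scaffold Knl1 (change 1.14), 3 rose and 2 fell to the 2-cell embryo, and 4 rose and 6 fell to the 4-cell embryo. Of 7 genes for CENP-A loading 6 were tested, of which 3 rose and 3 fell from GV to MII, 1 rose and 1 fell to the 2-cell embryo, and 3 fell to the 4-cell embryo. At each of the other 4 steps, at most 2 genes of a list rose and at most 2 fell.

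The gradients show where a transcript sediments, which rises with the number of ribosomes it carries. For each gradient the CPM of fractions 6 to 10 (heavy) and of fractions 1 to 5 (light) was averaged, and the sides were compared within a stage on log2(mean CPM + 1). Each fraction is scaled to its own total, so a side's mean weighs its fractions equally whatever RNA they held. In GV oocytes, MII oocytes and zygotes, members called heavy far outnumbered those called light. In GV oocytes 7 Cep genes were heavier and none lighter, and 4 Cenp genes heavier and 1 lighter (20.7% of the members, against 4.11% of 15172 genes tested, 3.3% heavier and 0.811% lighter). In MII oocytes these counts were 11 and none for Cep and 7 and 2 for Cenp (34.5%, against 15.2% of all genes, 8.86% heavier and 6.33% lighter), and in zygotes 8 and none for Cep and 8 and 2 for Cenp (31.0%, against 15.0%, 9.95% heavier and 5.06% lighter). Median differences in MII oocytes were 0.85 over Cep, 0.56 over Cenp and -0.06 over all genes. Of the calls over all genes 80.3% were heavier in GV oocytes, 58.3% in MII oocytes and 66.3% in zygotes. Quantile normalization took these shares to 53.3%, 50.5% and 52.2%, and with it 9, 20 and 17 members were called, of which 9, 20 and 16 were among the first calls.

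These counts depended on the test. The edgeR fits used reads summed over the fractions of a side, so each fraction counted by its depth, while limma averaged CPM. An edgeR fit on recovered reads with all stages together called none of the 58 genes in GV oocytes, 3 in MII oocytes and 3 in zygotes, and 8, 156 and 114 of all genes, while edgeR with only the groups compared called 11, 20 and 15 members. In GV oocytes 4, 1 and 4 of the 12 calls remained without gradient A, B or C, and Cep152 was the 1 gene called in each of these fits. Without fraction libraries under 1 M reads all 12 GV calls remained among 15. Of the 70 heavy against light calls over all stages, 6 were kept under every alternative, those of Cenpa, Cenpf and Cenpx in MII oocytes and in zygotes. The other heavy and light calls named below were lost in the edgeR fit with all stages unless stated.

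**Figure D3:**
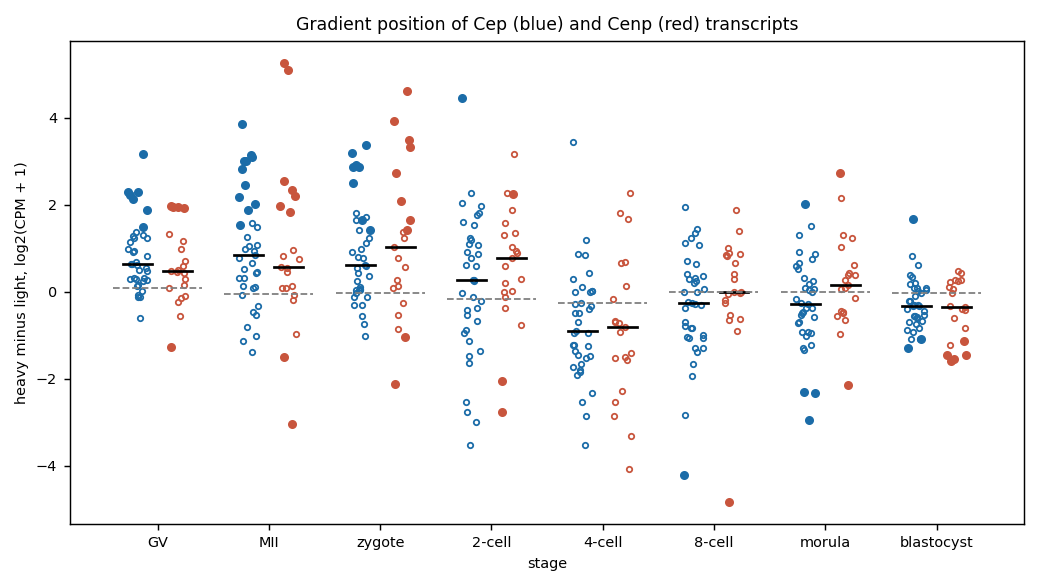
Difference between the heavy and the light side (vertical axis, log2(CPM + 1)) for each Cep (blue) and Cenp gene (red) at the 8 stages; filled points passed the test, black bars are medians of the set and dashed grey lines the median of all genes tested. The highest points are Cenpe and Cenpf in MII oocytes, at 5.26 and 5.09, and Cenpf is the lowest point in 8-cell embryos, at -4.82.

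The long transcripts of Cenpe and Cenpf had the largest heavy minus light differences of all members in MII oocytes. Cenpe had 342, 250.4 and 244 CPM on the heavy side of MII gradients A, B and C and 6.01, 5.62 and 7.03 on the light side (difference 5.26, SE 0.54, limma adjusted p 2.0e-09). Its heavy share, the part of the CPM summed over the 10 fractions that lay in fractions 6 to 10, was 79.9% ± 2.59 in GV oocytes (SD, n = 3), 97.8% ± 0.539 in MII oocytes and 94.1% ± 3.58 in zygotes. Cenpf had 974, 455 and 563 CPM on the heavy and 45.9, 10.2 and 11.03 on the light side of MII gradients (difference 5.09, SE 0.43, limma adjusted p 2.9e-11) and 207, 324 and 474 against 11.2, 11.3 and 14.0 in zygotes (difference 4.60, SE 0.45, limma adjusted p 1.1e-09). The sides did not overlap for either gene. In MII oocytes both peaked in fraction 8, with means of 544 CPM for Cenpe and 1285 for Cenpf.

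Cenpa, a short transcript, was also on the heavy side of MII gradients, with 96.2, 113 and 105 CPM against 21.3, 18.6 and 20.3 on the light side (difference 2.33, SE 0.23, limma adjusted p 5.7e-10), and of zygote gradients (difference 1.65). In GV oocytes its sides were closer, 265, 186 and 201 against 223, 123 and 129.5 CPM. They overlapped across gradients, with the heavy side higher within each gradient. Its heavy share was 58.5% ± 3.58 in GV oocytes, 83.9% ± 2.03 in MII oocytes, 47.4% ± 5.53 in morulae and 42.7% ± 4.74 in blastocysts, where the mean level peaked in fraction 5.

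Cenpx and Cenpm, short transcripts of the inner kinetochore, lay on the light side. Cenpx had 178, 68.3 and 132 CPM on the heavy and 1246, 805 and 926 on the light side of MII gradients (difference -3.05, SE 0.22, limma adjusted p 4.7e-13), with a mean of 4003 CPM in fraction 1 and 68.8 in fraction 3. In zygotes the difference was -2.11 and the heavy share 18.8% ± 1.90. Cenpm was on the light side in MII oocytes, with 271, 199 and 339 against 621, 610.5 and 1072 CPM (difference -1.49, SE 0.33, limma adjusted p 0.0011). Other subunits of the same layer were on the heavy side: Cenph had 44.3, 52.1 and 63.5 against 5.41, 2.15 and 4.46 CPM in zygotes (difference 3.49, SE 0.55, limma adjusted p 1.5e-05), and Cenpn had 228, 311 and 430.4 against 67.8, 41.1 and 35.0 (difference 2.73, SE 0.42, limma adjusted p 7.8e-06). In GV oocytes the sides of Cenpn overlapped across gradients, at 132, 180.1 and 159.5 against 119.7, 178 and 126 CPM. Within each gradient the heavy side was the higher.

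**Figure D4:**
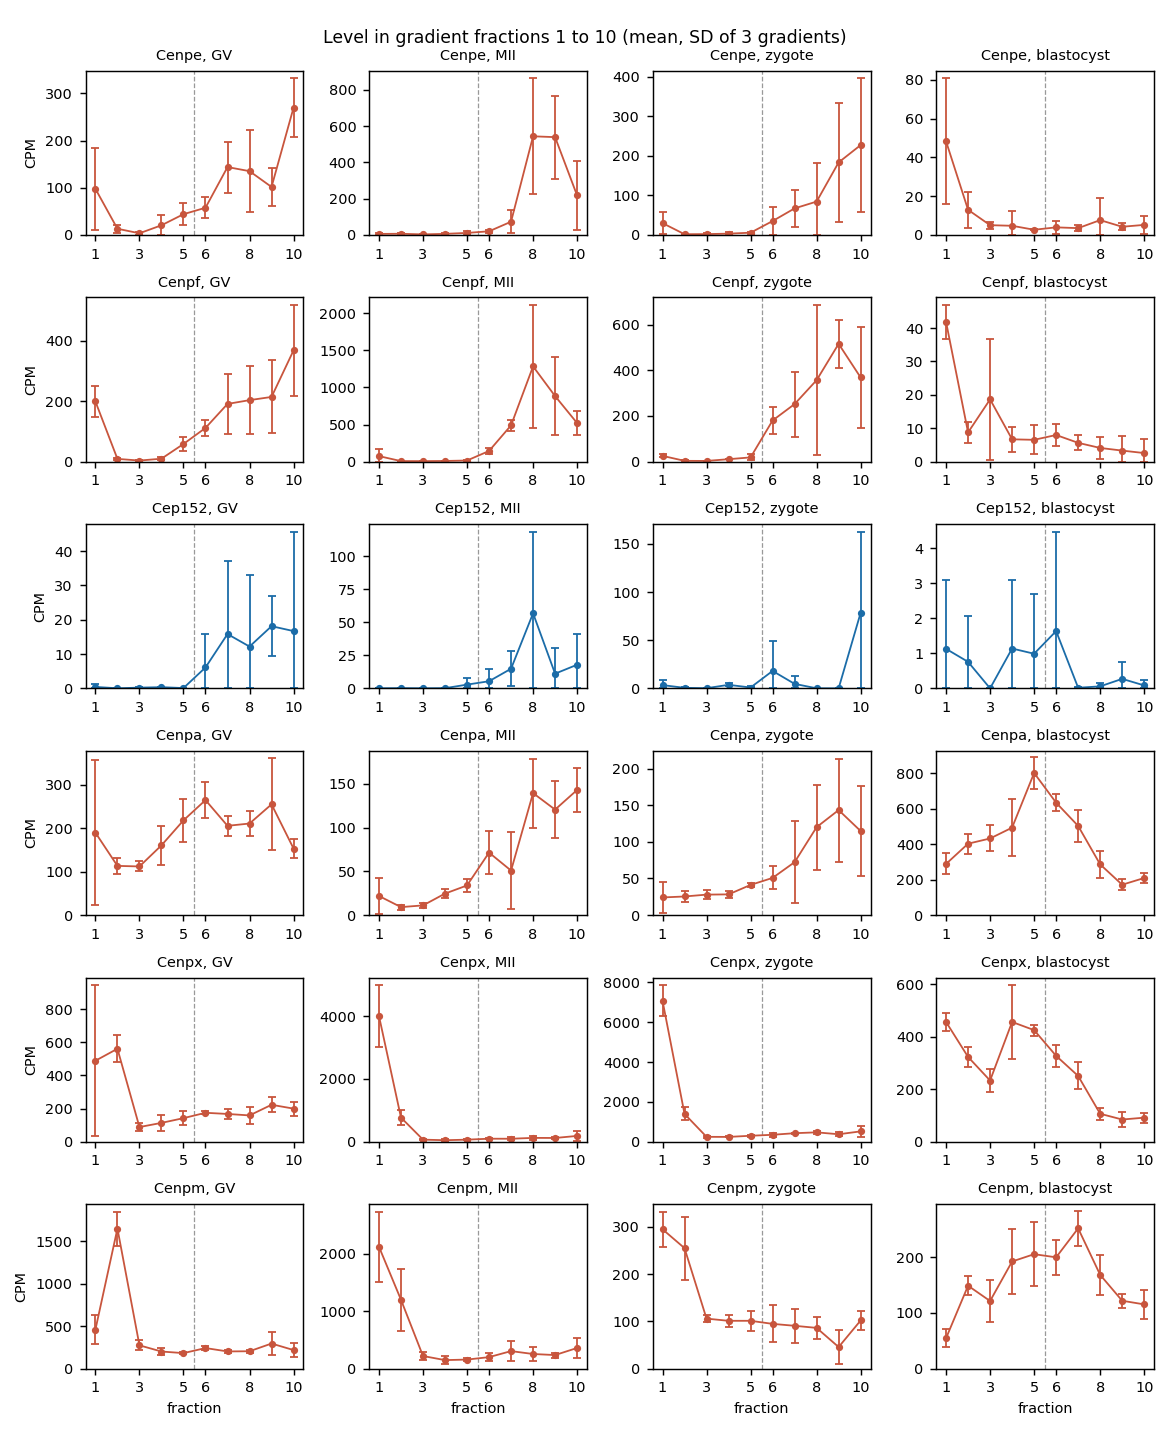
Mean CPM (vertical axis, from 0; bars are the SD of 3 gradients, cut at 0) in fractions 1 to 10 (horizontal axis) for 6 genes in GV oocytes, MII oocytes, zygotes and blastocysts; the dashed line parts the light from the heavy fractions. Cenpe and Cenpf are highest in fractions 8 to 10 in oocytes and zygotes and in fraction 1 in blastocysts, and Cenpx is highest in fraction 1 in MII oocytes and zygotes.

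Several centriole genes were on the heavy side in oocytes, which lack centrioles. Cep152 had 5.22, 30.5 and 5.60 CPM on the heavy and 0.116, 0.222 and 0.302 on the light side in GV oocytes (difference 3.17, SE 0.49, limma adjusted p 1.6e-04) and 14.1, 23.8 and 25.7 against 1.80, 0.113 and 0.0418 in MII oocytes (difference 3.86, SE 0.49, limma adjusted p 2.1e-07). Its levels varied several fold between gradients, and the sides did not overlap. Cep135 had 20.5, 21.7 and 19.5 against 1.00, 1.70 and 1.74 CPM in MII oocytes (difference 3.13, SE 0.44, limma adjusted p 1.6e-06), and Cep192 42.6, 24.9 and 4.49 against 2.57, 0.661 and 0.640 (difference 3.10, SE 0.55, limma adjusted p 6.6e-05). Cep164 had differences of 0.02, 0.14 and 0.11 in GV oocytes, MII oocytes and zygotes, none of them called. Cep55 had 97.5, 79.0 and 92.2 against 13.8, 4.43 and 11.3 CPM in zygotes (difference 3.18, SE 0.45, limma adjusted p 2.2e-06).

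After the zygote few members were called on either side. In 2-cell embryos 2 members were heavier and 2 lighter (6.9%, against 3.53% of all genes, 1.52% heavier and 2.02% lighter), and without gradient C none of the 4 remained. In 4-cell embryos limma called none of the 58 genes (0.817% of all genes, 0.125% heavier and 0.692% lighter), 4 had an unadjusted p under 0.05, and edgeR with all stages called 10. In 8-cell embryos 2 were lighter (3.45%, against 5.11%, 1.08% heavier and 4.03% lighter). One was Cenpf, with 0.570, 0.789 and 0.777 CPM on the heavy and 63.6, 54.7 and 30.4 on the light side (difference -4.82, SE 0.82, limma adjusted p 1.6e-04), a call that the edgeR fit with all stages kept. Its light mean lay mainly in fraction 1, at 197 CPM, and all 3 fraction 1 libraries of that stage held under 1 M reads. Without libraries under 1 M reads the difference was -2.9997 and no longer called.

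In morulae 2 members were heavier and 4 lighter (10.3%, against 11.4% of all genes, 5.06% heavier and 6.29% lighter), and 3 remained called in all without gradient C. Cenpf was lighter by 2.13 on the log2 scale, which became -0.35 without libraries under 1 M reads and -1.44 without gradient A, both not called. In blastocysts 1 Cep gene was heavier and 2 lighter, and 5 Cenp genes were lighter (13.8%, against 17.4%, 7.24% heavier and 10.1% lighter), and 4 members were called without gradient A and 5 without gradient B. Here no library held under 1 M reads. Cenpf had 5.29, 4.26 and 4.59 CPM on the heavy and 11.6, 20.6 and 17.3 on the light side (difference -1.58, SE 0.36, limma adjusted p 9.8e-04), and Cenpb 1.85, 1.77 and 3.17 against 6.13, 5.98 and 15.5 (difference -1.55, SE 0.30, limma adjusted p 1.3e-04). Cenpx was also on the light side (difference -1.13, SE 0.18, limma adjusted p 9.2e-06). The heavy share of Cenpf was thus 97.1% ± 1.42 in MII oocytes and 23.1% ± 7.31 in blastocysts.

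The heavy minus light difference changed between stages for few members, by a test of that change. From GV to MII oocytes it rose for 3 Cenp genes and fell for 1 (6.9% of the members, against 1.82% of all genes, 0.765% heavier and 1.05% lighter). Cenpe and Cenpf were already called heavy in GV oocytes. Cenpe changed by 3.30, SE 0.77, limma adjusted p 0.012, Cenpf by 3.14, Cenpa by 1.84 and Cenpx by -2.49, SE 0.31, limma adjusted p 3.3e-06. The light level of Cenpx in MII oocytes lay mainly in fraction 1. In GV oocytes fraction 1 of gradients A and B held only 0.0102 and 0.0231 M reads. Calls of this test, here and at the later step, were not checked under the alternatives or with a gradient left out. From the zygote to the 2-cell embryo the difference fell for Cenpf and Cep152 (3.45%, against 1.57%, 0.732% heavier and 0.837% lighter). Neither gene was called on either side in 2-cell embryos. Cenpf and Cep152 were also called lower in the transcriptome at this step, Cep152 to a mean under 1 CPM.

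Position in the gradient went with coding length in oocytes. Over the 58 genes, Spearman's correlation of coding length with the heavy minus light difference was 0.398 in GV oocytes, 0.382 in MII oocytes and 0.231 in zygotes, and it was negative later, at -0.256 at the 2-cell stage, -0.298 at the 8-cell stage and -0.2 in blastocysts. Over 13555 genes with a coding length the values had the same sign and were 0.156, 0.174, 0.166, -0.0644, -0.175 and -0.163. These are correlations across genes of the same libraries, whose fractions share their depth, and they describe the libraries. The coding sequence of Cenpf is 8991 bases long, that of Cenpe 7413, of Cep152 5208, of Cenpm 540, of Cenpa 402 and of Cenpx 363. Members longer than the median of 2218 bases had a median difference of 0.93 in MII oocytes and -0.39 in blastocysts, and the shorter members 0.54 and -0.03. Length did not order the members fully: the short Cenpa was heavy in MII oocytes (2.33), more so than Cep350, whose coding sequence has 9285 bases (difference 1.07, not called).

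**Figure D5:**
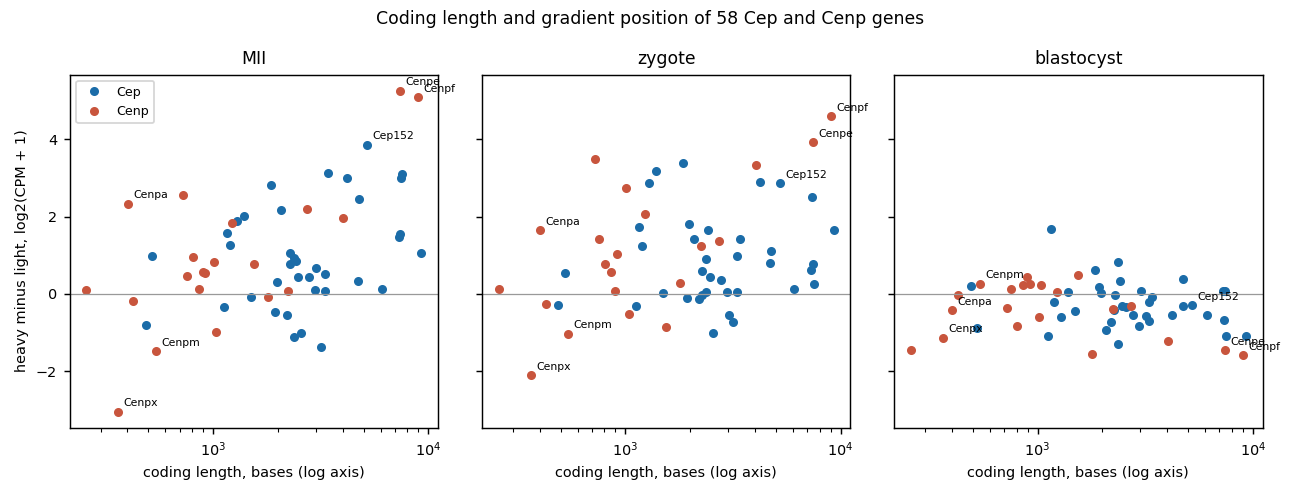
Coding length in bases (horizontal log axis) against the heavy minus light difference (vertical axis, log2(CPM + 1)) of the 58 genes in MII oocytes, zygotes and blastocysts; blue points are Cep and red points Cenp genes, and 6 genes are named. In MII oocytes the long Cenpe and Cenpf lie highest and the short Cenpx lowest, and in blastocysts Cenpf, Cenpe and Cenpx all lie below 0.

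The last comparison asks whether the heavy side changed between stages beyond the transcriptome, by an interaction term (heavy side or transcriptome, by stage). From GV to MII 4 Cenp genes were higher and 1 lower, and 2 Cep genes lower (12.1% of the members, against 16.6% of 15165 genes tested). Cenpm had fallen in the transcriptome by 2.99, while its heavy side had 205, 294 and 195 CPM in GV and 271, 199 and 339 in MII oocytes, which overlapped (interaction 3.21, SE 0.49, limma adjusted p 1.2e-06). Cenps went from 306 ± 17.4 to 48.9 ± 4.64 CPM in the transcriptome and had 205, 201 and 248 on the heavy side in GV and 353, 213 and 219.7 in MII oocytes (interaction 2.85, SE 0.35, limma adjusted p 6.8e-09). Cenpx had an interaction of 1.84, SE 0.37, limma adjusted p 1.9e-04. For these 3 subunits the transcriptome level fell and the heavy level did not fall by as much. The light side is not part of this comparison. In MII oocytes both the heavy and the light side of Cenpm and Cenpx stood above their transcriptome levels. Whether the gap to the transcriptome is particular to the heavy side was not tested. Cenpa went the other way: its transcriptome mean was 118 ± 2.70 CPM in GV and 149.9 ± 26.3 in MII oocytes, while the heavy side had 265, 186 and 201 and 96.2, 113 and 105 (interaction -1.36, SE 0.30, limma adjusted p 5.7e-04). Thus the gene whose heavy share was larger in MII oocytes had a lower heavy level there. Cep55 was called lower too (interaction -1.82, SE 0.44, limma adjusted p 0.0019), but not by edgeR.

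From the MII oocyte to the zygote 1 member was called (1.72%, against 3.41% of all genes), Cenps (-1.66; -1.43 without MII gradient A and no longer called). Later steps that involve the sparse gradients gave 1 call from the zygote to the 2-cell embryo (1.72%, against 8.66%), 2 from the 2-cell to the 4-cell embryo (3.45%, against 2.57%) and 2 from the 8-cell embryo to the morula (3.45%, against 3.28%), all of which were lost without one gradient or another. From the 4-cell to the 8-cell embryo limma called none (0.646% of all genes), 9 members had an unadjusted p under 0.05, and edgeR called 15. From the morula to the blastocyst 4 members were called lower (6.9%, against 7.7%), and 8 were called without morula gradient A. Cenpb, whose transcriptome level rose, had 7.11, 1.02 and 2.26 CPM on the heavy side in morulae and 1.85, 1.77 and 3.17 in blastocysts (interaction -2.96, SE 0.51, limma adjusted p 8.5e-05). Its heavy side did not share the rise of the transcriptome. Fractions 7 to 10 as the heavy side took this value to -1.41, and in edgeR it was -3.80 with an adjusted p of 0.69, both no longer called. None of the 4 calls at this step was kept in edgeR.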

How the data were processed

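RNA was measured in 272 libraries, 32 whole transcriptomes and 240 sucrose gradient fractions. The authors deposited CPM per gene symbol, made with Trim Galore 0.6.7, FastQC, HISAT2 2.2.1, featureCounts 2.0.1 and edgeR on build GRCm39, per the submitters' processing notes; annotation and settings are not given in the sources used here. Deposited sums were above 1 M in 38 columns, of which the 9 furthest above it are recorded as a signal and were used in the same way. Steps in the values gave whole reads (within 0.05 of a read) for 100% of values in all libraries. Polyadenylated RNA was amplified, so a share of fragments may repeat 1 molecule and limits from reads cover counting error only. Of 15854 symbols, 159 in 76 groups had identical values and were kept once per group, leaving 15771. With these kept once, every column summed to under 1 M. The 2-cell transcriptome columns carry letters E to H, unlike their labels (A to D).

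Computed here were log2(CPM + 1), heavy (fractions 6 to 10) and light (1 to 5) means per gradient, and fits with limma 3.58.1 in R 4.3.3 over all stages, with a weight per stage for gradients. Tested genes reached a CPM of 1 in 4 transcriptomes or in 3 gradient values. Genes were called at a Benjamini-Hochberg adjusted p under 0.05 and a change of at least 1. The model was tested on simulated data. Both sides come from 1 gradient, which pairs them by construction; their deviations correlated at 0.0078 to 0.25. Alternatives were another pseudocount, no filter, quantile normalization, edgeR 4.0.16 on recovered reads, only the groups compared, a replicate block, 1 shared spread, fractions 7 to 10 against 1 to 4, and each replicate left out. A fit without fraction libraries under 1 M reads, and edgeR with only the groups compared, were chosen after seeing the data. Fraction 7 of 2-cell gradient B was left out of edgeR fits, although whole reads were recovered for it as for the other libraries. Per comparison the text names up to 3 Cep and 3 Cenp genes with the largest called changes in each direction, where they held up or their loss is given, and 16 genes by role. Other genes were added after their values were seen. The members and lists were chosen with earlier results of these data known. Values of 1 member are not reported here by name; it stays in the counts.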

Additional observations from a re-analysis of the deposited data

Results flagged for a closer look

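Of 280 groups of 4 transcriptome libraries tested for a library far from the others (by the gap to the nearest library as a share of the whole range), 16 had one, and chance flags about 1 in 20 groups. A library stood far from the other 3 of its stage for Cenpf in MII pool C (562 CPM, lower than the others at 755 to 784) and Cenpi in 2-cell pool G (47.9 CPM, higher than the others at 24.7 to 28.2). The same was seen for Cenpi in morula pool B (72.6 CPM, higher than the others at 32.1 to 39.0) and Cenpj in 2-cell pool H (41.9 CPM, higher than the others at 31.6 to 32.1). Likewise set apart were Cenpk in 2-cell pool E (22.2 CPM, lower than the others at 38.7 to 40.8) and Cenpn in 8-cell pool D (121 CPM, higher than the others at 84.9 to 87.9). Also apart were Cenps in 8-cell pool A (179 CPM, lower than the others at 249.9 to 256) and Cenps in morula pool A (181 CPM, higher than the others at 115 to 126). A single library differed for Cep128 in 8-cell pool B (2.10 CPM, higher than the others at 0.443 to 0.690) and Cep135 in blastocyst pool D (17.3 CPM, higher than the others at 5.01 to 6.55). Further cases were Cep164 in zygote pool B (77.3 CPM, higher than the others at 61.7 to 63.8) and Cep170 in MII pool A (44.1 CPM, lower than the others at 60.5 to 61.7). Among later and earlier stages there were Cep170 in morula pool D (12.9 CPM, lower than the others at 16.5 to 17.1) and Cep192 in 8-cell pool D (60.1 CPM, lower than the others at 68.9 to 69.8). The remaining cases were Cep57l1 in zygote pool C (207 CPM, lower than the others at 229.9 to 234) and Cep63 in MII pool D (7.13 CPM, higher than the others at 4.69 to 4.93).

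The heavy minus light difference itself changed between stages for 6 pairs of gene and step, by a limma test of that change. From GV to MII oocytes it rose for Cenpe by 3.30 (limma adjusted p 0.012), for Cenpf by 3.14 (0.002) and for Cenpa by 1.84 (7.1e-04), and for Cenpx the change was -2.49 (3.3e-06). The difference thus rose for the kinesin, the outer kinetochore coiled coil and the centromeric histone and fell for a small histone-fold subunit. For Cenpa the level of both sides was lower in MII than in GV oocytes, more so on the light side. From the zygote to the 2-cell embryo the change was -4.97 for Cenpf (limma adjusted p 0.011) and -5.62 for Cep152 (0.01). In 2-cell gradients 46.5% of the values of the 58 genes were 0 reads. The light level of Cenpx in MII oocytes lay mainly in fraction 1, and this fraction of GV gradients A and B held only 0.0102 and 0.0231 M reads. These 6 calls were not checked under the alternatives or with a gradient left out.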

How the results depend on the processing

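Counts of transcriptome calls moved little: with quantile normalization 4 members, in place of 7, were called from the 8-cell embryo to the morula, and the other 6 steps stayed within 1.5 times under pseudocount, filter, scaling, edgeR and the fit of only the groups compared. Leaving out 1 pool gave 25 to 29 calls from GV to MII, 5 to 6 to the zygote, 15 to 18 to the 2-cell, 36 to 40 to the 4-cell, 1 to 5 to the 8-cell embryo, 5 to 11 to the morula and 13 to 16 to the blastocyst. Of 110 such calls 77 were kept under every alternative, as were 6 of 70 heavy against light calls and 4 of 17 calls beyond the transcriptome. No value turned its sign past the threshold.

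Heavy against light, the members called in GV oocytes went from 12 to 0 with edgeR, 6 with only the groups compared and 1 with a shared spread. In MII oocytes they went from 20 to 3 with edgeR and 9 with a shared spread, and in zygotes from 18 to 3 and 8. In 2-cell embryos they went from 4 to 11 with edgeR, 1 with only the groups, 0 with edgeR on only the groups and 8 with a shared spread. In 4-cell embryos 0 became 10 with edgeR, 6 with a shared spread and 1 with fractions 7 to 10 against 1 to 4. In 8-cell embryos 2 became 0 with edgeR on only the groups and 0 without libraries under 1 M reads. In morulae 6 became 0 with edgeR, 0 with edgeR on only the groups and 1 with a shared spread. In blastocysts 8 became 0, 4 with only the groups in limma, 2 with edgeR on only the groups and 1 with a shared spread. Leaving out 1 gradient gave 1 to 4 in GV oocytes, 16 to 20 in MII oocytes, 14 to 16 in zygotes, 0 to 2 in 2-cell, 0 to 0 in 4-cell and 1 to 1 in 8-cell embryos, 3 to 4 in morulae and 4 to 7 in blastocysts. The cause of these differences was not tested.

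Beyond the transcriptome, calls from GV to MII went from 7 to 4 with edgeR and 4 with a shared spread. From MII to the zygote 1 became 2 with quantile normalization, 2 with edgeR and 2 with fractions 7 to 10. From the zygote to the 2-cell embryo 1 became 5 with a pseudocount of 0.5, 3 with no filter, 0 with quantile normalization, 11 with edgeR, 0 with only the groups, 11 with a shared spread and 2 with fractions 7 to 10. From the 2-cell to the 4-cell embryo 2 became 1 with a pseudocount of 0.5, 1 with quantile normalization, 17 with edgeR and 16 with a shared spread. From the 4-cell to the 8-cell embryo 0 became 1, 15 and 10 with a pseudocount of 0.5, edgeR and a shared spread. From the 8-cell embryo to the morula 2 became 7 with edgeR and 0 with only the groups, and to the blastocyst 4 became 1 with edgeR and 2 with a shared spread. Leaving out 1 pool or gradient gave 5 to 7, 0 to 2, 0 to 3, 0 to 2, 0 to 0, 0 to 4 and 3 to 8 calls for the 7 steps in order. The cause was not tested.

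With the gradient or pool letter as a replicate block, heavy against light calls were 12, 22, 18, 4, 0, 2, 7 and 10 at the 8 stages, and transcriptome calls were 26, 6, 4, 7 and 13 and calls beyond the transcriptome 6, 1, 0, 2 and 4 for the 5 steps without 2-cell embryos, whose letters differ. The block ended the calls of Cep70 in GV oocytes, Cep85l in zygotes and Cenpk beyond the transcriptome from GV to MII. Same-lettered pools of different stages deviated together by -0.18 to 0.17 only. These values cannot show whether same-lettered pools were collected or processed together. In gradients of 2-cell, 4-cell and 8-cell embryos 46.5%, 58.2% and 50.8% of the members' values were 0 reads; the part of this in the low numbers of calls was not tested.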
